A study of Mus musculus with 10 samples.

Results

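Collagens and basement membrane proteins form the matrix on which the crypt epithelium rests. Laminin trimers (one α, one β and one γ chain) and the collagen IV network make up the sheet directly under the epithelial cells, nidogens and perlecan tie these layers together, and the fibril-forming collagens, fibronectin and SPARC belong mostly to the connective tissue beyond it. Fibroblasts, smooth muscle and endothelial cells produce most of this matrix in the gut, while the epithelium itself contributes some chains, among them those of laminin-332, the trimer that anchors epithelial cells at hemidesmosomes.

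The genes described here were chosen by symbol (collagen chains, laminin α, β and γ chains, Nid1, Nid2, Hspg2, Fn1, Sparc and Pxdn) and by a measured value, a mean of at least 10 expected counts over the 10 libraries. Of 54838 genes listed, 61 had a symbol of this form and 34 reached that mean. Col4a5 (mean 13.6 counts) and Col14a1 (18.3) lay just inside the limit, and Col9a3 (9.0) and Col6a4 (8.1) just outside. From what is known of their sources, 19 of the 34 genes were listed as stromal, 3 as epithelial (among them Lama3 and Lamb3) and 12 as neither. Col17a1, also on the epithelial list, had a mean of 6.7 counts and was left out. All 34 genes passed the filter on low counts and were tested.

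The libraries came from isolated crypts of the jejunum of 5 WT mice and 5 Arid3a cKO mice (Villin-CreERT2; Arid3a fl/fl), one library per animal, 1 month after tamoxifen on 3 consecutive days, which both groups received. The Villin promoter drives the deletion in intestinal epithelial cells, so fibroblasts and endothelial cells of the cKO mice keep Arid3a. Whether the WT mice carried Cre or floxed alleles, and the age and sex of the animals, are not given in the sources used here. The animal identifiers fell into one series for WT and another for cKO, so genotype and colony or litter cannot be told apart. Arid3a itself was at 1.91, 2.07, 2.75, 2.68 and 2.69 CPM (expected counts relative to the TMM-normalized library size) in WT replicates 1 to 5 and at 0.303, 0.516, 0.490, 0.884 and 1.17 CPM in cKO replicates 1 to 5, without overlap of the groups (log2 fold change −1.84, standard error 0.32, adjusted p = 0.00204). Libraries held between 27050455 and 31053622 expected counts. Changes are given as the log2 fold change of cKO over WT from edgeR's quasi-likelihood test, with p-values adjusted by the Benjamini-Hochberg method over all 14719 genes tested and a threshold of 0.05.

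Over all tested genes, average linkage separated the 5 WT from the 5 cKO libraries, and WT replicates 4 and 3 were the least like the others (mean Pearson correlation of log2 CPM across genes with the other libraries 0.971 and 0.977, beside 0.978 to 0.984). In the genes described here another library stood apart. In cKO replicate 4, 16 of the 34 genes (12 of the 19 stromal ones) were at their highest level of all 10 libraries, and 17 were more than 2 times the median of the other cKO libraries. WT replicate 3 held the highest level of 13 genes, among them Pxdn, Lama5, Lamb1, Lamb2, Hspg2 and Col14a1, the genes called lower below. The same shares over all tested genes were not computed. Calls lost or gained without cKO replicate 4 are given beside each gene. The sum of 16 fibroblast markers was 45.0 CPM in cKO replicate 4, against 23.1 to 30.7 CPM in the other cKO libraries and 15.7 to 32.6 CPM in WT. Vim and Prrx1, described further below, weigh heavily in this sum, so it says little of the remaining markers.

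Of the 34 genes, 6 were lower in Arid3a cKO crypts (17.6%; 12.7% of all tested genes were lower) and 1 was higher (2.94%; 15.6% of all tested genes were higher). The lower genes were Pxdn, Lama5, Lamb1, Lamb2, Hspg2 and Col14a1, and the higher gene was Lama3. The fitted difference was negative for 29 genes and positive for 5, with a median of −0.42 on the log2 scale, beside −0.03 over all tested genes. In 3 genes (Pxdn, Lama5 and Lamb1) every cKO library lay below every WT library, a pattern that 7.63% of all tested genes showed. By role, 3 of 8 laminin chains fell and 1 rose, 1 of 3 basement membrane linkers fell, 1 of 3 matrix glycoproteins and peroxidasin fell, 1 of 3 fibril-associated collagens fell, and none of 7 fibril-forming collagens, 3 collagen IV chains, 4 collagen VI and related chains, collagens XV and XVIII or collagen VII passed the test. Among these 17 genes without a call, Col4a1 and Col15a1 had an unadjusted p under 0.05. DESeq2 and limma-voom each called 1 of the 17, Col4a1.

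**Figure D1:**
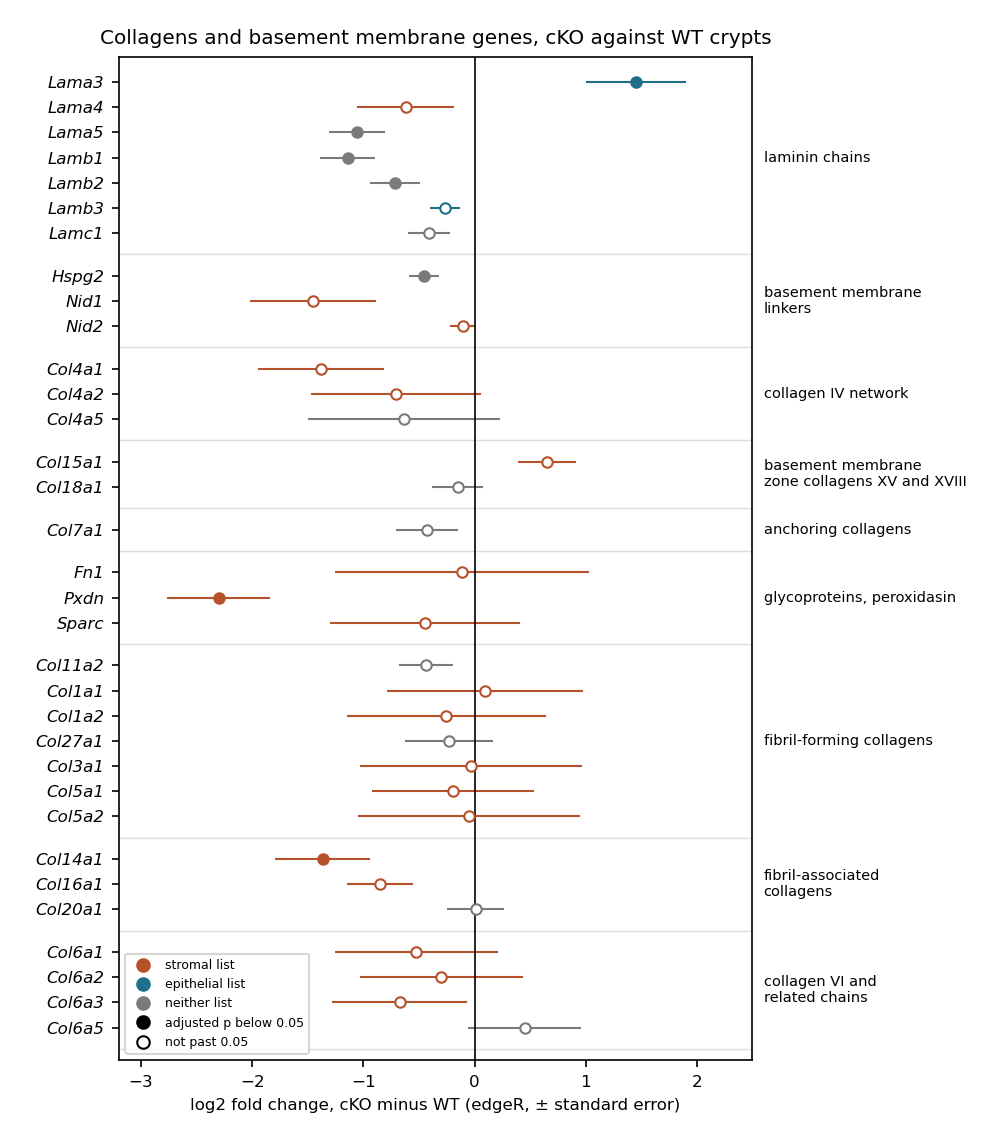
Log2 fold change of cKO over WT (x axis, edgeR, with its standard error) for 33 of the 34 genes, grouped by role and coloured by the list of known sources. Filled points passed the adjusted p threshold of 0.05. Pxdn lies farthest to the left at −2.30, and the bars of Col1a1, Col1a2, Col3a1, Col5a1 and Col5a2, with standard errors up to 1.00, span 0.

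The promoters of the 3 genes whose groups did not overlap are shown beside that of Col3a1, a fibrillar collagen gene whose groups did overlap, to set genes of both patterns side by side. Each run is the 250 bases before the transcription start of RefSeq (GRCm38.p6), 5′ to 3′ on the gene's strand, at chr12:29937786-29938035 (+) for Pxdn, chr2:180225860-180226109 (−) for Lama5, chr12:31265043-31265292 (+) for Lamb1 and chr1:45311288-45311537 (+) for Col3a1. Capitals mark the GC box, GGGCGG, on either strand. In the window of Col3a1 they mark the TATA box, TATAAA, instead.
Pxdn: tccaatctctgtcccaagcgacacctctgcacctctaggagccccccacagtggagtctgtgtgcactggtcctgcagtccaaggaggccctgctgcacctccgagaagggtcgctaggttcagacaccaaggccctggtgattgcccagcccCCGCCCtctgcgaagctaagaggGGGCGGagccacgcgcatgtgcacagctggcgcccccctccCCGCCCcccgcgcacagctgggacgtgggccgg
Lama5: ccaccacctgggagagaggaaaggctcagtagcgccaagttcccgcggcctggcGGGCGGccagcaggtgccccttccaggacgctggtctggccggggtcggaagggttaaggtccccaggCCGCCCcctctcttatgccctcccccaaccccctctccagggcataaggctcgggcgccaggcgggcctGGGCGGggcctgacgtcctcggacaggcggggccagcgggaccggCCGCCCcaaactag
Lamb1: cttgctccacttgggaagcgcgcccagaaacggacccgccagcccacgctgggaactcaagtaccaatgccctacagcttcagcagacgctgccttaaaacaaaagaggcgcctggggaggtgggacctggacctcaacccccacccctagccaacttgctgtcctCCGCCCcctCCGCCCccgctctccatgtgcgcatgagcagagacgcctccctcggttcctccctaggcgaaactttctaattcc
Col3a1: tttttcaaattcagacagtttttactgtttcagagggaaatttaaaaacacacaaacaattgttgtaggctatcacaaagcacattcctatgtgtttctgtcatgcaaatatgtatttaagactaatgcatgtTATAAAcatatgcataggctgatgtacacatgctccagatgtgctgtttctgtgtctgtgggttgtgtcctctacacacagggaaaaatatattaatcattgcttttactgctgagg

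The window of Pxdn held 3 GC boxes, that of Lama5 4 and that of Lamb1 2, and the window of Col3a1 held none and 1 TATA box. Of the 34 genes, 25 had a RefSeq window, and in 22 of these it lay within 1000 bases of the gene's 5′ end in the GENCODE annotation. A GC box was present in 15 of the 22 windows (68.2%) and in 32.7% of all 32851 RefSeq windows of the same length. TATAAA was present in 2 of the 22 (9.09%, all windows 12.4%) and CCAAT on either strand in 10 of the 22 (45.5%, all windows 33.8%). ATTAAA and ATCAAA, which are forms of the AT-rich core that ARID3A is known to bind, were searched on either strand and were in none of the 22 windows and in 12.7% and 10.6% of all windows. The GC content of the 22 windows ran from 35.2% (Col3a1) to 76.4% (Col5a1), with a median of 60.6%, beside 52.4% over all windows. GC boxes were also present before genes whose groups overlapped, such as Col1a2, Col5a1 and Col6a2, and whether the promoter sequence bears on the levels was not tested.

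Peroxidasin, the haem peroxidase that forms sulfilimine crosslinks between collagen IV protomers, had the largest fitted fall of the 34 genes. Pxdn (chr12:29937608-30017658, plus strand) was at 25.1, 17.8, 29.9, 21.2 and 17.5 CPM in WT replicates 1 to 5 and at 4.48, 5.75, 7.59, 4.11 and 0.606 CPM in cKO replicates 1 to 5. The lowest WT library was more than 2 times the highest cKO library, and cKO replicate 5, with 16 counts, was the lowest. The log2 fold change came to −2.30 (standard error 0.46, adjusted p = 0.00724), with means of 22.3 ± 5.24 CPM in WT and 4.51 ± 2.57 CPM in cKO (SD, n = 5). Pxdn did not share the high level of cKO replicate 4, where it was 0.804 times the median of the other cKO libraries. Relative to the summed fibroblast markers of the same library, Pxdn ran from 0.673 to 1.34 in WT and from 0.0198 to 0.325 in cKO, again without overlap. With Vim and Prrx1 left out of the marker sum, a choice made after the data were seen, these ranges were 2.55 to 5.06 and 0.139 to 2.49. The gap then almost closed, with WT replicate 5 at 2.55 and cKO replicate 3 at 2.49. The groups also did not overlap in the deposited TPM, a unit that divides by transcript length, with 3.95 to 7.09 TPM in WT and 0.130 to 1.64 TPM in cKO.

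The laminin α5 and β1 chains, which with γ1 make up laminin-511, were both lower in cKO crypts. Lama5 (chr2:180176373-180225859, minus strand) was at 6.20, 4.68, 12.4, 10.3 and 5.24 CPM in WT and at 3.91, 4.13, 3.67, 3.40 and 3.48 CPM in cKO. Lamb1 (chr12:31265234-31329644, plus strand) was at 3.90, 3.99, 8.01, 5.56 and 3.46 CPM in WT and at 2.06, 2.54, 3.08, 1.8 and 1.82 CPM in cKO. WT replicates 3 and 4 were highest for both genes, the cKO libraries lay close together, and the groups did not overlap. The log2 fold change came to −1.06 for Lama5 (standard error 0.25, adjusted p = 0.00979) and −1.14 for Lamb1 (standard error 0.25, adjusted p = 0.00659). Without WT replicates 3 and 4 together, Lama5 (−0.53, adjusted p = 0.0386) and Lamb1 (−0.74, adjusted p = 0.0425) kept their calls, as did Pxdn (adjusted p = 0.0432). Relative to the summed fibroblast markers of the same library the groups overlapped for Lama5 (0.177 to 0.651 in WT, 0.0755 to 0.179 in cKO) and Lamb1 (0.120 to 0.353 in WT, 0.0400 to 0.132 in cKO). With Vim and Prrx1 left out of that sum, the mean ratios were 1.27 and 1.09 for Lama5 and 0.806 and 0.680 for Lamb1, in WT and cKO. For Hspg2, the perlecan gene, they were 5.63 in WT and 7.30 in cKO, so that the direction turned (1.49 and 0.917 with the full sum). This was not particular to Hspg2. The direction also turned for Lamb3 (3.17 and 4.61 without Vim and Prrx1), Lamc1 (2.48 and 3.06), Nid2 (1.82 and 3.10) and Col18a1 (0.437 and 0.669), among others. In TPM the groups overlapped for Lama5, at 1.61 to 4.68 in WT and 1.32 to 2.24 in cKO. They also overlapped for Lamb1, at 0.720 to 2.37 in WT and 0.380 to 0.860 in cKO.

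Lamb2, the β2 chain that takes the place of β1 in laminin-521, was at 3.31, 2.96, 5.33, 5.06 and 3.78 CPM in WT and at 2.09, 2.18, 2.59, 3.67 and 1.89 CPM in cKO. Within cKO, replicate 4 alone reached into the WT range. It fell with a log2 fold change of −0.72 (standard error 0.23, adjusted p = 0.0326). The call was lost without WT replicate 3 (adjusted p = 0.0828), 4 (0.0843) or 5 (0.0504) and without cKO replicate 1 (0.0765), 2 (0.0681), 3 (0.0546) or 5 (0.0752). Lamc1, the γ1 chain common to these laminins, averaged 14.9 ± 3.73 CPM (WT) and 11.2 ± 2.67 CPM (cKO; SD, n = 5) and did not pass the test (log2 fold change −0.41, standard error 0.19, adjusted p = 0.129). Without cKO replicate 4 it was called (−0.55, adjusted p = 0.0459). Lama4, the α4 chain of vascular basement membranes, ranged from 0.368 to 1.32 CPM (WT) and from 0.236 to 1.19 CPM (cKO) and did not pass with all libraries (log2 fold change −0.62, adjusted p = 0.309) or without cKO replicate 4 (−1.03, adjusted p = 0.0950).

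Perlecan, the large heparan sulfate proteoglycan that binds laminin, nidogen and collagen IV, was among the most highly expressed of these genes per length, at a mean of 5.47 TPM. Hspg2 (chr4:137468769-137570630, plus strand) was at 35.3, 26, 43.7, 40.0 and 28.5 CPM in WT and at 29.4, 22.6, 24.5, 24.9 and 25.1 CPM in cKO. The groups overlapped, since WT replicates 2 and 5 lay below cKO replicate 1. The difference was small and passed the test (log2 fold change −0.46, standard error 0.13, adjusted p = 0.0250), but not without WT replicate 3 (adjusted p = 0.0613) or 4 (0.0665) or without cKO replicate 2 (0.0537), 3 (0.0527) or 4 (0.0510). Without WT replicates 3 and 4 together the values were −0.24 for Hspg2 (adjusted p = 0.182) and −0.43 for Lamb2 (adjusted p = 0.243). The nidogens, glycoproteins that bridge laminin and collagen IV, did not pass with all libraries. Nid2 averaged 11.5 ± 1.86 CPM (WT) and 10.7 ± 0.407 CPM (cKO; SD, n = 5; log2 fold change −0.11, adjusted p = 0.497), although it overlaps Rtraf on the opposite strand, which had a mean of 3779 counts, and the strand setting of the counting is not given in the sources used here. Nid1 was at 0.517 to 1.64 CPM in WT and at 0.101 to 1.02 CPM in cKO (log2 fold change −1.45, adjusted p = 0.0755), and cKO replicate 4 was the highest of its group. It was called without that library (−2.40, adjusted p = 0.00591) and by limma-voom (−1.77, adjusted p = 0.0295).

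Of the epithelial laminin chains, Lama3 passed the test and Lamb3 did not. Lamb3, the β3 chain, was at 19.9, 15.4, 23.8, 20.3 and 19.7 CPM in WT and at 15.2, 17.3, 15.6, 21.4 and 12.9 CPM in cKO (log2 fold change −0.27, standard error 0.14, adjusted p = 0.171). The groups overlapped. Lama3, the α3 chain, rose by a log2 fold change of 1.45 (standard error 0.45, adjusted p = 0.0310), from 0.348, 0.827, 0.916, 0.636 and 0.764 CPM in WT to 0.809, 2.40, 0.664, 2.07 and 3.67 CPM in cKO. Replicates 1 and 3 of the cKO group lay inside the WT range, and the rise rested on the other 3. The call was lost without WT replicate 1 (adjusted p = 0.0622), 4 (0.0711) or 5 (0.0536) and without cKO replicate 2 (0.0648), 4 (0.0568) or 5 (0.0872), and by limma-voom (0.0939).

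Collagen IV is the network collagen of all basement membranes. Col4a1 (chr8:11198423-11312826, minus strand) was at 2.40, 1.45, 2.95, 1.07 and 1.85 CPM in WT and at 0.135, 0.369, 0.594, 2.11 and 0.492 CPM in cKO. In 4 of the 5 cKO libraries it was below every WT library, and cKO replicate 4 lay among the WT libraries. With all libraries the log2 fold change reached −1.38 (standard error 0.57, adjusted p = 0.0892), and without cKO replicate 4 it was −2.28 (adjusted p = 0.00513). Relative to the summed fibroblast markers of the same library, Col4a1 ran from 0.0545 to 0.106 in WT and from 0.00541 to 0.0468 in cKO, where cKO replicate 4 no longer overlapped WT. With Vim and Prrx1 left out of that sum, the ranges were 0.256 to 0.377 in WT and 0.0494 to 0.253 in cKO. The gap then almost closed, with cKO replicate 4 at 0.253. Col4a2, whose gene begins 22 bases inside Col4a1 on the opposite strand, gave −0.71 with all libraries (adjusted p = 0.520) and −1.98 without cKO replicate 4 (adjusted p = 0.0389). Col4a5, an X-linked chain at 0 to 38 counts per library, did not pass with (−0.63, adjusted p = 0.615) or without (−2.07, adjusted p = 0.0706) that library.

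Other collagens of the basement membrane zone did not pass the test. Col15a1, the chain of a collagen at the boundary of basement membrane and fibrils, was at 1.36, 1.45, 2.04, 1.51 and 1.27 CPM in WT and at 2.06, 1.44, 2.17, 3.94 and 2.38 CPM in cKO. Its log2 fold change of 0.65 (standard error 0.26, adjusted p = 0.0767) was the second largest positive value after Lama3. It was called without cKO replicate 2 (0.79, adjusted p = 0.0381), and without cKO replicate 4 the value was 0.40 (adjusted p = 0.201). Col18a1, the source of endostatin, averaged 2.79 ± 0.482 CPM (WT) and 2.51 ± 0.857 CPM (cKO; SD, n = 5; log2 fold change −0.15, adjusted p = 0.646) and overlaps Slc19a1, which had a mean of 1434 counts, on the opposite strand. Col7a1, the collagen of anchoring fibrils, was at 0.975, 1.72, 1.83, 1.71 and 1.38 CPM in WT and at 1.18, 1.33, 0.525, 1.12 and 1.51 CPM in cKO, and the groups overlapped (log2 fold change −0.43, standard error 0.28, adjusted p = 0.275).

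The chains of collagens I, III and V, fibronectin and SPARC varied widely between animals of one genotype. Col3a1 (chr1:45311538-45349706, plus strand) was at 22.6, 7.30, 32.4, 2.85 and 24.1 CPM in WT and at 3.50, 3.06, 6.5, 66.1 and 8.21 CPM in cKO. WT replicates 2 and 4 lay near the low cKO libraries, and cKO replicate 4 exceeded every other library. The log2 fold change of −0.03 had a standard error of 1.00 (adjusted p = 0.987). Fn1 (chr1:71585520-71653200, minus strand), which encodes fibronectin, was at 42.9, 4.06, 18.4, 2.01 and 10.04 CPM in WT and at 1.65, 2.29, 5.35, 55.6 and 6.36 CPM in cKO, a 21.3-fold range within WT and a 33.7-fold range within cKO. Its log2 fold change of −0.12 (standard error 1.14) did not pass either (adjusted p = 0.954). With standard errors of this size, a genotype difference of 1 on the log2 scale was not detectable in either gene.

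**Figure D2:**
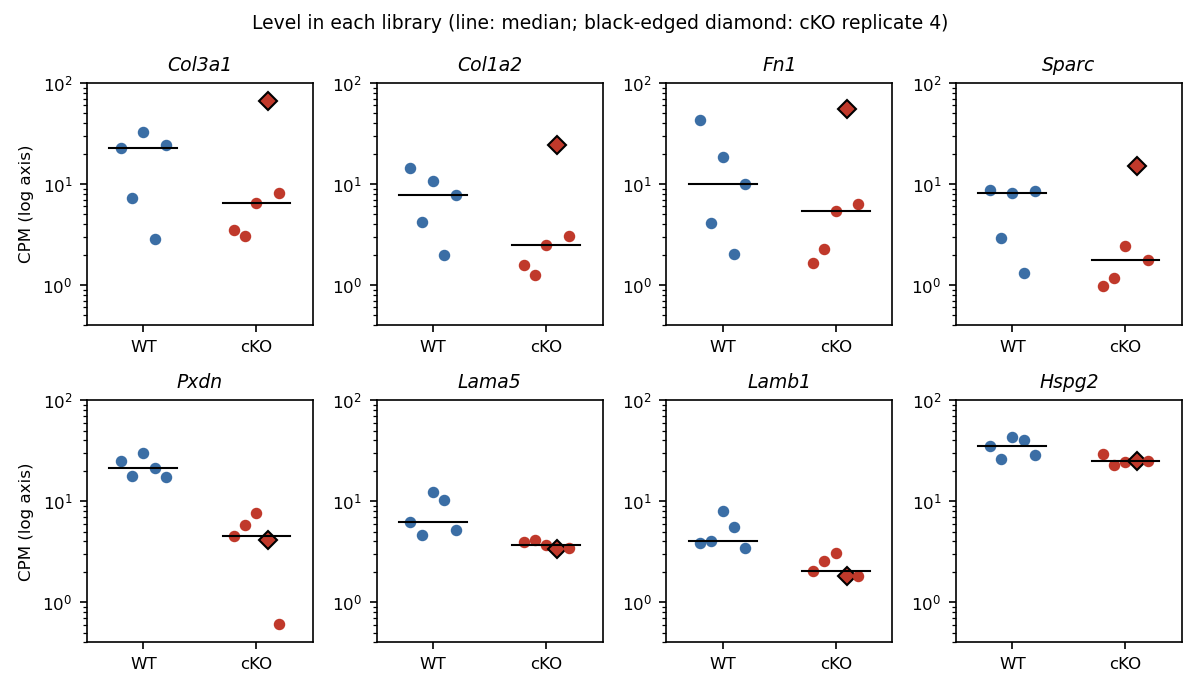
Level in each library (y axis, CPM on a log axis) of 4 connective tissue genes (upper row) and 4 basement membrane genes (lower row), with 5 points for WT, 5 for cKO and a line at each median. The diamond, cKO replicate 4, is the highest of all libraries in the upper row (66.1 CPM for Col3a1) and is not high in the lower row, where it is the lowest of all libraries for Lama5 (3.40 CPM) and Lamb1.

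Leaving out cKO replicate 4 moved this whole group to lower values. Every library was left out in turn, but this one was singled out after its levels were seen. It was the highest cKO library in 26 of the 34 genes, so a shift of those genes to lower values followed from leaving it out. The genes for the 2 chains of collagen I gave log2 fold changes of 0.09 (Col1a1) and −0.26 (Col1a2) with all libraries and of −1.54 (adjusted p = 0.0468) and −1.89 (adjusted p = 0.0407) without it. Sparc, which encodes a collagen-binding glycoprotein, moved from −0.45 to −1.89 (adjusted p = 0.0428), and Col5a1, a chain of the minor fibrillar collagen V, from −0.19 to −1.69 (adjusted p = 0.0146). Col3a1 (−1.75, adjusted p = 0.106), Fn1 (−1.99, adjusted p = 0.149) and Col5a2 (−1.92, adjusted p = 0.0721) still did not pass. Of all 34 genes, 15 were lower and none higher by the same test without this library, beside 9.78% lower and 13.6% higher of all genes tested then. Without this library, 1 gene had a positive value with an unadjusted p under 0.05. With all 10 libraries, DESeq2 called 1 gene higher and limma-voom none.

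**Figure D3:**
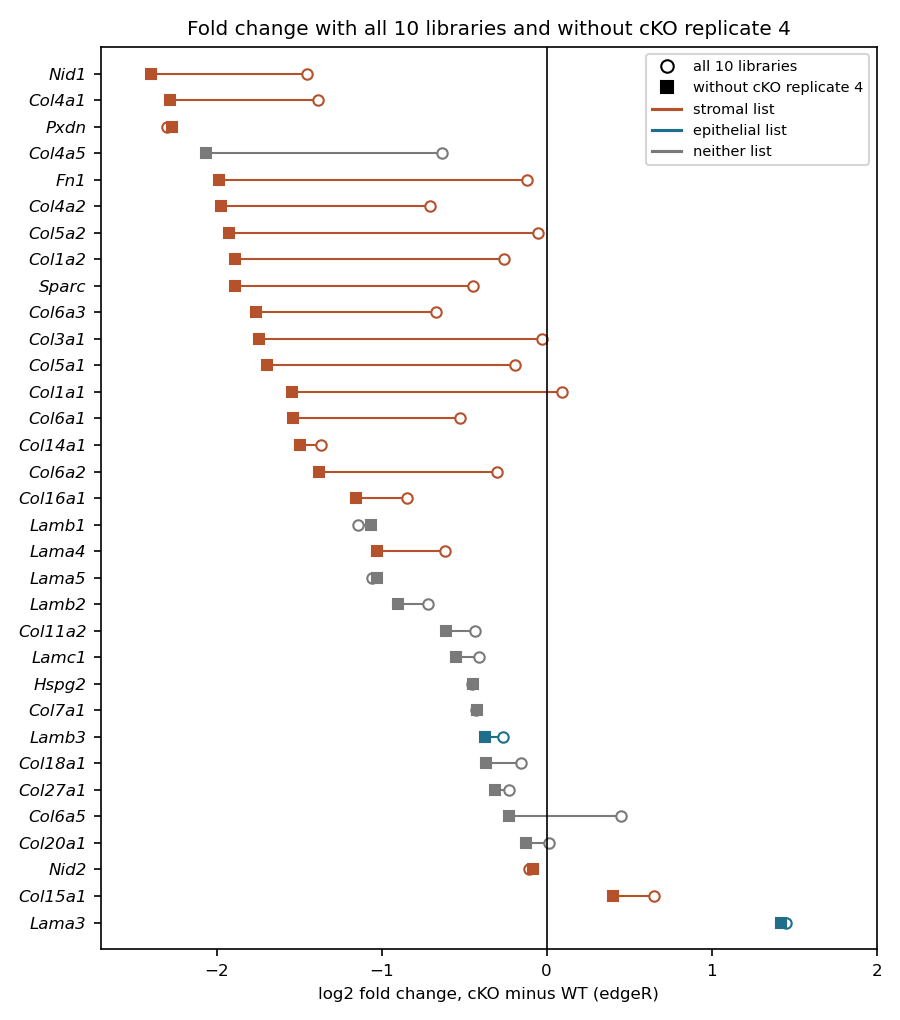
Log2 fold change of cKO over WT (x axis, edgeR) for 33 of the 34 genes with all 10 libraries (open circles) and without cKO replicate 4 (squares), ordered by the latter and coloured by the list of known sources. Col1a1, Col1a2, Col3a1, Col5a2 and Fn1 shift left by 1.63 to 1.87, while Pxdn, Lama5, Lamb1, Hspg2 and Nid2 stay close to their place.

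Fibril-associated collagens, which decorate the surface of larger fibrils, held 1 gene that fell. Col14a1 was at 1.22, 0.448, 1.53, 0.368 and 1.05 CPM in WT and at 0.168, 0.295, 0.385, 0.476 and 0.454 CPM in cKO (log2 fold change −1.37, standard error 0.43, adjusted p = 0.0324), from 5 to 45 counts per library. WT replicates 2 and 4 lay within the cKO range. The call was lost without WT replicate 1 (adjusted p = 0.0665), 3 (0.0872) or 5 (0.0646) and without cKO replicate 1 (0.0760), 2 (0.0692), 3 (0.0560) or 5 (0.0508), and by limma-voom (0.0725). Col16a1 was at 1.74, 1.58, 3.5, 2.55 and 2.84 CPM in WT and at 0.944, 1.11, 1.12, 2.38 and 1.21 CPM in cKO, with cKO replicate 4 alone inside the WT range. It missed the threshold with all libraries (log2 fold change −0.85, standard error 0.30, adjusted p = 0.0507) and passed it without WT replicate 1 (0.0422) or 2 (0.0297) and without cKO replicate 4 (0.0120). It was also called by DESeq2 (0.0304) and limma-voom (0.0475), with the replicate block (0.0474), with library size only (0.0257) and with at least 10 counts required in every library (0.0456). Col20a1 averaged 0.644 ± 0.139 CPM (WT) and 0.648 ± 0.142 CPM (cKO; SD, n = 5).

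The chains of collagen VI, which form beaded microfibrils around cells, were highest in cKO replicate 4, as those of collagens I and III were. Col6a1 (chr10:76708792-76726168, minus strand) was at 5.74, 1.79, 6.31, 1.17 and 6.44 CPM in WT and at 1.15, 0.811, 1.75, 8.98 and 2.20 CPM in cKO (log2 fold change −0.52, standard error 0.73, adjusted p = 0.625). Without cKO replicate 4 the value was −1.54 (adjusted p = 0.0677). Col6a2, which lies 85.2 kb from Col6a1 on the same strand and encodes its partner chain, gave −0.30 (adjusted p = 0.788) with all libraries and −1.38 (adjusted p = 0.0774) without cKO replicate 4. The Col6a1 to Col6a2 ratio in TPM varied far less than either level, from 0.966 to 1.41 in WT and from 0.889 to 1.35 in cKO. Col6a3 gave −0.67 (adjusted p = 0.435) with all libraries and −1.76 (adjusted p = 0.0137) without cKO replicate 4. Col6a5, which was lowest in WT replicate 5 where Col6a1 was the highest of WT, gave 0.45 (adjusted p = 0.531) and −0.23 (adjusted p = 0.701).

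As a group, the 19 stromal genes had a median log2 fold change of −0.45 and a median standard error of 0.73. Of the stromal genes 2 fell (10.5%, Pxdn and Col14a1), and of the 3 epithelial genes 1 rose (33.3%). Of the 12 genes on neither list 4 fell (33.3%, Lama5, Lamb1, Lamb2 and Hspg2). Over all tested genes 12.7% were lower and 15.6% higher. The difference between these groups was not tested. Without cKO replicate 4, singled out after its high levels were seen, the stromal median was −1.75. Then 11 of 19 genes were lower, beside 9.78% of all genes tested in that fit. The stromal list was not uniform. In Pxdn and Nid2 the highest WT library exceeded the lowest by 1.71 and 1.5 times, while the range was 7.22 times in Col1a2, 11.4 in Col3a1, 13.5 in Col5a2 and 21.3 in Fn1. The value of Nid2 carries the limit given above, its overlap with Rtraf on the opposite strand.

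**Figure D4:**
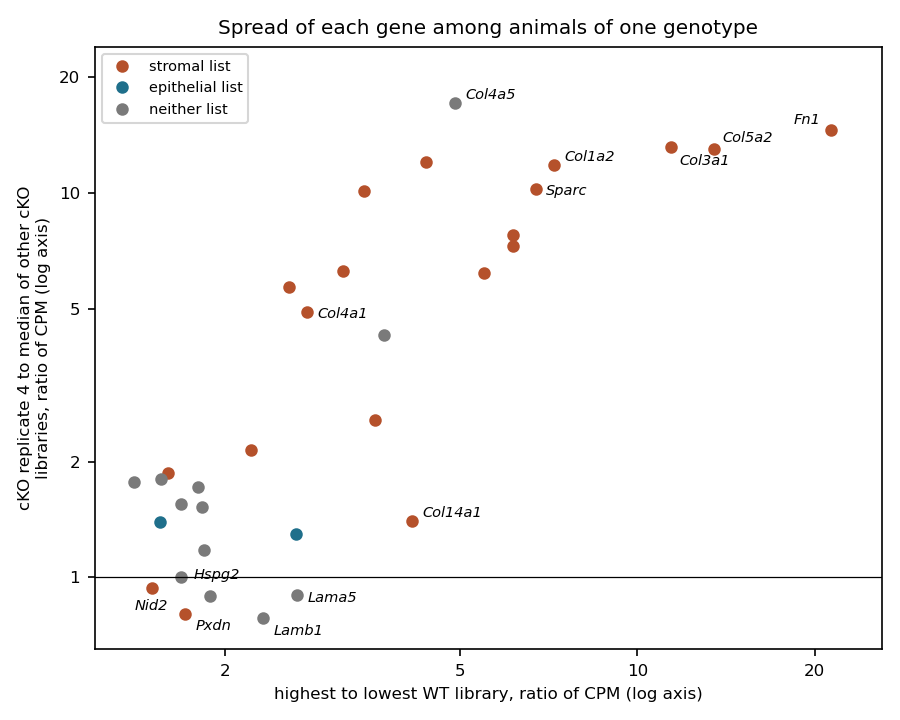
Each of the 33 points is 1 gene, placed by the ratio of its highest to its lowest WT library (x axis) and by the ratio of cKO replicate 4 to the median of the other cKO libraries (y axis), both ratios of CPM on log axes. Fn1 lies at 21.3 and 14.6, and Pxdn, Nid2, Hspg2, Lama5 and Lamb1 lie near or under 1 on the y axis. The 2 axes share no library.

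Markers of other cell types were measured in the same libraries. The summed level of 12 blood endothelial markers ran from 10.4 to 16.5 CPM (WT) and from 7.01 to 10.1 CPM (cKO), and the groups did not overlap. The exact permutation test, two-sided, gave p = 0.00794, which is the lowest value possible with 5 against 5 animals, and 0.0714 after Benjamini-Hochberg adjustment over 9 lists. The sum was highest in WT replicates 3 (16.5 CPM) and 4 (15.8 CPM), the libraries with the most Lama5 and Lamb1. This was not particular to endothelial markers. Within WT, replicates 3 and 4 also held the highest sums of smooth muscle (6.04 and 6.03 CPM), pericyte (2.41 and 1.78 CPM) and telocyte markers (42.2 and 44.6 CPM). The fibroblast, lymphatic endothelial, glial, immune and epithelial sums did not show this. Of the 12 blood endothelial markers 6 were tested and 2 were lower (33.3%, beside 12.7% of all tested genes). Among the 2 was Pecam1 (log2 fold change −1.19, adjusted p = 0.00984). None of the 12 markers was at 0 in every library. In bulk RNA, fewer cells of a type and less RNA per cell cannot be told apart, and the part of endothelial cells in the laminin and perlecan values was not tested.

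The sum of 16 fibroblast markers averaged 25.0 ± 6.31 CPM (WT) and 29.4 ± 9.25 CPM (cKO; SD, n = 5; exact permutation test, p = 0.437, adjusted p = 0.491), with Twist2 at 0 in every library. The largest share came from Vim, an intermediate filament gene that many mesenchymal and immune cells express (15.7 ± 3.66 CPM, WT, and 13.7 ± 5.44 CPM, cKO), and Prrx1 rose (log2 fold change 2.05, adjusted p = 0.0113). Pdgfra, a receptor of fibroblasts, was at 1.94 CPM in cKO replicate 4, at 0.202 to 0.420 CPM in the other cKO libraries and at 0.402 to 1.29 CPM in WT. In cKO replicate 4, 10 of the 15 fibroblast markers with counts were at the highest level of the cKO group. The same held there for 9 of 14 immune, 5 of 6 lymphatic endothelial, 5 of 8 smooth muscle and 4 of 5 pericyte markers, and for 2 of 12 blood endothelial and 1 of 12 epithelial markers. At their highest level of all 10 libraries there were 5 immune and 3 fibroblast markers. The part of these cell types in the levels of this library was not tested. The sums of smooth muscle (2.58 to 6.04 CPM in WT, 1.52 to 4.18 in cKO; adjusted p = 0.179), pericyte (0.727 to 2.41 and 0.553 to 1.87; adjusted p = 0.408, Higd1b at 0 throughout), lymphatic endothelial (5.65 to 8.91 and 6.12 to 8.98; adjusted p = 0.937), glial (1.89 to 2.96 and 2.80 to 3.67; adjusted p = 0.0714), immune (108 to 196 and 56.2 to 135; adjusted p = 0.171), telocyte (37.7 to 44.6 and 44.6 to 53.8; adjusted p = 0.0714) and epithelial markers (8572 to 10141 and 9756 to 11215; adjusted p = 0.171) did not pass the same exact permutation test.

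Genes that act on this matrix were taken from 4 lists, and their counts stand beside 12.7% lower and 15.6% higher genes of all tested. Among enzymes that fold and crosslink collagen, 2 of 16 tested genes fell (12.5%) and 1 rose (6.25%). Crtap, a partner of prolyl 3-hydroxylation, went from 8.33 ± 1.85 down to 5.54 ± 0.406 CPM (change of −0.59 on the log2 scale, adjusted p = 0.0125), as did the galactosyltransferase gene Colgalt1 (−0.27, adjusted p = 0.0237). P4hb, which encodes protein disulfide isomerase, a subunit of prolyl 4-hydroxylase with wider roles in secretory protein folding, rose from 1241 ± 215 to 1907 ± 173 CPM (0.62, adjusted p = 0.00303). The call of Colgalt1 was lost without WT replicate 4 (adjusted p = 0.0599) or 5 (0.0526) and without cKO replicate 1 (0.0549) or 4 (0.0502).

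Among 19 tested matrix receptors, 3 fell (15.8%) and 1 rose (5.26%). Bcam, a receptor for laminin α5, averaged 7.36 ± 1.18 CPM (WT) and 4.43 ± 0.543 CPM (cKO; SD, n = 5; log2 fold change −0.73, adjusted p = 0.00320), with every cKO library below every WT library. Itga5, the α chain of the fibronectin receptor, fell from 7.08 ± 1.30 to 3.78 ± 0.828 CPM (−0.90, adjusted p = 0.00407), also without overlap, and the heparan sulfate proteoglycan gene Sdc1 fell by less (−0.41, adjusted p = 0.0171). Itga3, whose product pairs with integrin β1 to bind laminin-332 and laminin-511, rose from 72.3 ± 4.68 to 104 ± 7.85 CPM (0.52, adjusted p = 7.99e-04). Sdc4, the most abundant gene of this list, was not called (−0.05, adjusted p = 0.660).

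Of 23 other tested matrix and basement membrane genes, 4 fell (17.4%) and 2 rose (8.70%). Npnt, which encodes the basement membrane ligand nephronectin, fell from 1.30 ± 0.256 to 0.511 ± 0.272 CPM (log2 value −1.35, adjusted p = 0.0112), and Fbln1, which encodes fibulin-1, rose from 37.4 ± 9.26 to 83.8 ± 24.1 CPM (1.16, adjusted p = 0.00462), both without overlap of the groups. Efemp1 (−1.79, adjusted p = 0.0478), Ecm1 (−0.89, adjusted p = 0.0248) and Smoc2 (−0.32, adjusted p = 0.0381), the most abundant of the list, fell and Vwa1 rose (1.85, adjusted p = 0.0339), with overlapping groups. The call was lost in 8 of the 10 fits without 1 library for Efemp1, in 4 for Ecm1 and in 7 for each of Vwa1 and Smoc2. Of 14 tested matrix proteases and inhibitors, 5 fell (35.7%) and none rose, also at an unadjusted p under 0.05 and by DESeq2 or limma-voom. Mmp7, the matrilysin that Paneth cells make and that activates their defensins, fell from 173 ± 38.5 to 85.9 ± 23.8 CPM (−1.01, adjusted p = 0.00678), and Adamdec1, a metalloprotease gene of intestinal fibroblasts and macrophages, from 5.32 ± 2.16 to 1.18 ± 0.269 CPM (−2.17, adjusted p = 9.26e-04). Mmp9, a gelatinase gene, fell from 1.45 ± 0.678 to 0.425 ± 0.127 CPM (−1.76, adjusted p = 0.00557). In Mmp7, Adamdec1 and Mmp9 the groups did not overlap.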

How the data were processed

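RNA-seq of jejunal crypts from 5 WT and 5 Arid3a cKO mice was used as deposited. The authors aligned reads with STAR and quantified genes with RSEM in an nf-core pipeline (GRCm38), and deposited one table per library with expected counts, which need not be whole, and TPM, which also divide by transcript length. The strand setting of the counting is not given in the sources used here. Symbols and coordinates came from GENCODE M21 and matched 54809 of 54838 genes.

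Expected counts were rounded, filtered with filterByExpr (minimum count 10, minimum total 15), normalized by TMM and tested with edgeR's quasi-likelihood test in R, with genotype as the only term and Benjamini-Hochberg adjustment over all genes tested (threshold 0.05). The fit was tested on simulated data. Versions were R 4.3.3, edgeR 4.0.16, limma 3.58.1, DESeq2 1.42.0, Python 3.11.15 and matplotlib 3.10.9. Libraries held 27050455 to 31053622 counts. The p-values of this test set the difference between the groups against the spread between these animals. TPM was used only for levels between genes, ratios and a check of overlap. Marker sums were compared by an exact permutation test over all 252 assignments.

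The genes, roles, sources, marker lists and pathway lists were chosen with earlier results of these data known. Values in every library are given for genes past the threshold without overlap, for the gene with the highest mean TPM of each role and for the epithelial chains; those of Lamb2 and Col14a1 were added after their values were seen. From the pathway and marker lists, the text names up to 3 called genes per direction with the largest changes (mean count of 20 or more) and the most abundant gene, where a result needs them; Pdgfra was added after its values were seen. Alternatives were RLE and library size scaling, no filter or a filter on every library, unrounded counts, a replicate block, limma-voom, DESeq2, a minimum mean of 50 counts, other source lists and leaving out each library. One of the 34 genes is counted above and its own values are not reported here.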

Additional observations from a re-analysis of the deposited data

Results flagged for a closer look

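In 15 of the 34 genes the highest of the 5 cKO libraries lay far from the other 4 by Dixon's test, and it was cKO replicate 4 each time. The levels in this library were 66.1 CPM for Col3a1, 55.6 CPM for Fn1, 24.1 CPM for Col1a2, 17.2 CPM for Col1a1 and 15.2 CPM for Sparc. Collagen VI chains were at 8.98 CPM (Col6a1), 8.81 CPM (Col6a2), 1.80 CPM (Col6a3) and 1.94 CPM (Col6a5) there. The remaining 6 genes were Col5a2 at 4.93 CPM, Col5a1 at 2.92 CPM, Col16a1 at 2.38 CPM, Col4a1 at 2.11 CPM, Col4a2 at 1.84 CPM and Nid1 at 1.02 CPM. Chance gives such a gap in about 1 in 20 groups of normally distributed values, while the test was run on CPM without a log transform. That rate may therefore not hold here, and the share of all tested genes with such a gap was not computed. These genes also share their libraries, so the 15 are not independent. None of the 34 genes had such a gap in WT or at the low end of cKO.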

How the results depend on the processing

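Pxdn, Lama5 and Lamb1 passed the threshold in the same direction in all 19 alternatives. With 1 library left out at a time, the number of lower genes ran from 3 to 15 (15 without cKO replicate 4; 3 without WT replicate 3, cKO replicate 2 or cKO replicate 3), the number of higher genes from 0 to 1, and the median of the stromal genes from −1.75 (without cKO replicate 4) to −0.19. Without WT replicates 3 and 4 together, a choice made after seeing the data, 3 genes were lower and 0 higher. The calls of Crtap (adjusted p = 0.0614), Sdc1 (0.0745), Npnt (0.0781), Pecam1 (0.0712), Col14a1 (0.0585) and Lama3 (0.106) were lost, beside those of Hspg2 and Lamb2. So were those of Colgalt1 (adjusted p = 0.103), Ecm1 (0.0569), Efemp1 (0.0590), Smoc2 (0.249) and Vwa1 (0.104). Limma-voom and a minimum mean of 50 counts left 0 higher genes. With the genes on neither list counted as epithelial, the epithelial median was −0.41. The direction of several genes was not fixed: with 1 library left out, the log2 fold change ran from −1.54 to 0.36 (Col1a1), −1.89 to 0.082 (Col1a2), −1.75 to 0.30 (Col3a1), −1.69 to 0.047 (Col5a1), −1.92 to 0.23 (Col5a2), −0.23 to 0.82 (Col6a5), −0.13 to 0.10 (Col20a1), −0.40 to 0.015 (Col27a1), −1.99 to 0.73 (Fn1) and −0.080 to 0.0056 (Sdc4). Col1a1 was at −0.010 with library size only, −0.89 with the replicate block and −0.65 with limma-voom, Col20a1 at −0.11 with library size only, and Col27a1 at 0.045 and Sdc4 at 0.016 without WT replicates 3 and 4 together. Library size only moved the median of all genes to −0.16. The cause of these changes was not tested.

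Same-numbered WT and cKO libraries deviated together with correlations of −0.20 to 0.10, so the numbers did not pair the animals. The replicate block gave 6 lower genes and 1 higher, a stromal median of −0.998, and lost the call of Col14a1 (adjusted p = 0.0803; limma-voom 0.0725). Depth limits the genes with few counts, such as Col14a1 (5 to 45 per library) and Lama3 (10 to 97).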
